A study of Mus musculus with 12 samples.

Results

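The 42 mRNAs described here encode the soluble factors of protein synthesis: the initiation factors (among them by name Eif5a, which acts in elongation), the elongation factors Eef1a1, Eef1b2, Eef1d, Eef1g and Eef2, the release factors Etf1 and Gspt1, the recycling ATPase Abce1 and the poly(A)-binding protein Pabpc1. They were chosen by name from the 55416 genes of the count tables, and all 42 were among the 17702 genes that passed the filter on low counts. They were measured in E14Tg2a.4 mouse embryonic stem cells of the Rpl31-FTA line, in which a FLAG-TEV-AviTag on Rpl31 lets ribosomes be biotinylated. ALIBi, a proximity biotinylation method, was aimed at the ER (endoplasmic reticulum), and mRNA was sequenced from the ribosomes it marked, here called ER-bound RNA, and from an aliquot of each lysate kept before purification, here called whole-cell RNA. Before labelling, the cells were given either scramble siRNA or siRNA to Lsg1, whose product is a GTPase of late large-subunit maturation. The 12 libraries form 4 groups of 3 labelled biological replicates: ER-bound scramble, whole-cell scramble, ER-bound Lsg1 and whole-cell Lsg1. The cells of all 4 groups carried the tagged Rpl31 and the ER-directed labelling system, so none of the comparisons is with unmodified cells.

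Initiation begins when eIF2 delivers the initiator tRNA to the small ribosomal subunit, while eIF3, eIF1, eIF1A and eIF5 prepare that subunit and the eIF4 factors recruit the capped mRNA. eIF5B then joins the subunits, eEF1A and eEF2 drive each elongation step, and eRF1 (Etf1) with eRF3 (Gspt1) ends the chain before ABCE1 splits the ribosome. All these proteins work in the cytosol and have no ER signal sequence. Several of their mRNAs, with those of the ribosomal proteins, carry a 5′ terminal oligopyrimidine (TOP) tract, a cap-proximal C followed by a run of pyrimidines, through which growth signals control their translation. The comparison of fractions asks how the abundance of each mRNA among those on ER-labelled ribosomes stands against its abundance in the cell, and the comparison of siRNAs asks whether that changed with depletion of Lsg1.

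Of 11 members listed as known TOP mRNAs, 6 have an annotated start in the RefSeq promoter table (GRCm38.p6, not the build of the counts), and their starts are shown because the TOP tract is the sequence feature these members are known to share with the ribosomal protein mRNAs. Each is printed from 10 bases before the start to 20 bases from it, on the gene's own strand, so that the 11th base is the annotated start. Capitals mark the longest C followed by at least 4 C or T bases that begins within 10 bases of that start.
Eef1a1: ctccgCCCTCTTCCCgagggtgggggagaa
Eif3f: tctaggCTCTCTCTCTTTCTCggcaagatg
Eif4b: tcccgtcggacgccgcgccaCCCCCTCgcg
Eef2: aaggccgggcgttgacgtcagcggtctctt
Eef1b2: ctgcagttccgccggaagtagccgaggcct
Eif3a: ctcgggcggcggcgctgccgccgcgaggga
They lie at chr9:78481705-78481734 (minus strand), chr7:108934405-108934434 (plus), chr15:102073763-102073792 (plus), chr10:81176621-81176650 (plus), chr1:63176821-63176850 (plus) and chr19:60790674-60790703 (minus). Counted by gene, a run was found for 3 of these 6, and for 5 of the 27 other members with an entry. Counted by start, 8 of the 40 annotated starts of members held one (20%). Of all 32851 annotated starts 29% held one, and of 76 starts of ribosomal protein genes 51.3% did. In Eif4b the run begins 10 bases after the annotated start, and in Eef1a1 and Eif3f it begins before it, at -5 and -4 bases. Whether any marked run is the cap-proximal TOP tract was not tested. Where no run was found the letters of this window alone are described.

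Reads assigned to genes numbered between 38092178 and 56522114 per library. Levels are given in CPM, reads per 1e6 reads in genes after scaling. The marker sums that follow were instead taken over library totals, without scaling. The 8 stem cell markers summed to 7204 to 7571 CPM in whole-cell and 9852 to 10890 CPM in ER-bound libraries, and in scramble cells 7 of the 8 were higher and 1 was lower in ER-bound RNA. The 5 primitive endoderm markers summed to 6.68 to 8.03 CPM in whole-cell and 8.98 to 10.2 CPM in ER-bound libraries, and the trophoblast markers to 10.9 to 11.7 and 11.4 to 12.3 CPM, with none called in scramble cells. Of the 4 trophoblast markers 3 passed the filter on low counts. In Lsg1 siRNA cells 2 of the 5 primitive endoderm markers and no trophoblast marker were higher in ER-bound RNA, beside 30.6% of all genes. Within ER-bound RNA, 2 of the 8 stem cell markers were lower with the Lsg1 siRNA and none was higher, beside 1.38% and 2.63% of all genes. The 6 fibroblast or feeder markers summed to 26.3 to 29.3 CPM in whole-cell and 48.5 to 60.3 CPM in ER-bound libraries, with Thy1 as the main part and Col3a1 near 0, and 2 of these 6 were higher in ER-bound RNA in scramble cells. The 7 mRNAs of secretory pathway or membrane proteins chosen as a check, such as Hspa5 and Calr, were all higher in ER-bound RNA (median log2 fold 1.04 in scramble cells), and 7 mitochondrially encoded mRNAs were all lower (median -6.59). Mitochondrial RNA made up 1.97% to 2.16% of whole-cell and 0.0254% to 0.0296% of ER-bound reads, and the part of these marker and composition differences in the results below was not tested. Replicate 3 of the ER-bound scramble group and replicate 3 of the whole-cell Lsg1 group stood apart. In 1 gene given by its identifier alone (ENSMUSG00000119584) they were at 18470 and 15600 CPM, with the others between 1115 and 4143 CPM. Their reads in no feature were 5.11% and 5.26%. The other ER-bound scramble libraries had 2.69% and 3.05%, and the other whole-cell Lsg1 libraries 4.1% and 4.26%.

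In scramble cells, the translation factor mRNAs were less abundant among ER-bound than among whole-cell mRNAs more often than the reverse. Of 42 members, 24 were lower and 6 higher in ER-bound RNA, and 12 did not pass the test. Over all genes tested, 58.9% passed, with 29.8% higher and 29.1% lower, so the members' share of lower calls (57.1%) was above and that of higher calls (14.3%) below the background. The median log2 fold of the members was -0.11, against 0.03 for all genes. Most differences were small: 3 of the 24 lower members (Eif5b, Eif3a and Eif3b) and 0 of the 6 higher members differed by at least 1.5-fold. In these bulk samples, fewer cells with an mRNA on ER ribosomes and less of it per cell cannot be told apart. When libraries were scaled by their totals in place of TMM, 10 members were higher and 18 lower, with 60.8% in place of 50.7% of all calls higher. In Lsg1 siRNA cells 25 members were lower and 3 higher, beside 60.3% of all genes called (30.6% higher, 29.8% lower). Without the 2 libraries that stand apart, 3 members were higher and 24 lower in scramble cells, and 3 higher and 27 lower in Lsg1 siRNA cells. The fraction comparisons share no library, but they come from the same fit, with a shared scaling and estimate of spread. Of the members, 24 were lower in both, 3 were higher in both and none was called in opposite directions. The same counts over all genes were not taken, so this agreement is not shown to be particular to the members. The ER-bound libraries lay fully below the whole-cell libraries for 24 members and fully above for 6 in scramble cells, beside 31.4% and 32.6% of all genes (63.9% together), and for 26 and 5 members with the Lsg1 siRNA, beside 31.5% and 33.0% (64.4% together). The summed level of the 42 mRNAs was 41140 to 42340 CPM in whole-cell scramble and 38590 to 38690 CPM in ER-bound scramble libraries. By library totals the gap was smaller, with the 42 mRNAs at 4.04% to 4.08% of whole-cell and 3.89% to 4.02% of ER-bound scramble reads, and the groups overlapped on neither scale.

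**Figure D1:**
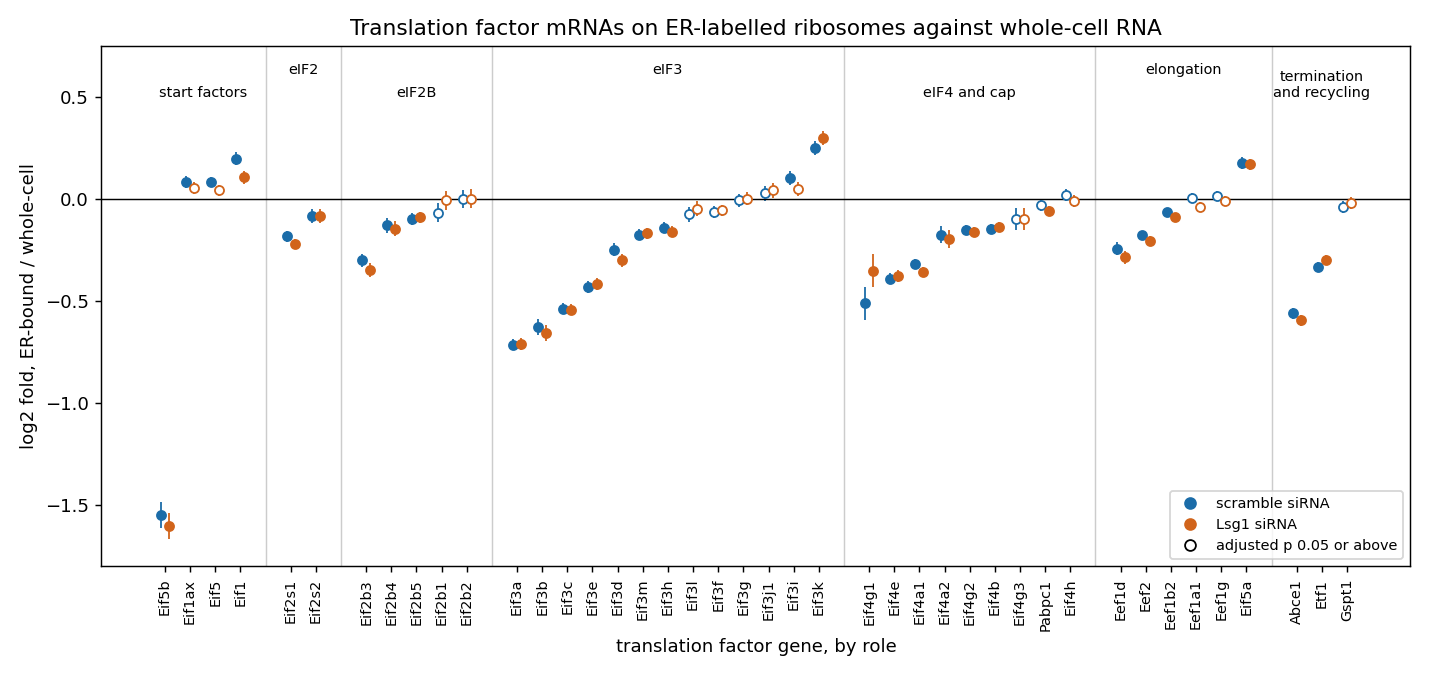
Fraction log2 fold (ER-bound over whole-cell RNA) of each of the 42 members (vertical axis, points with SE from edgeR, 3 libraries per group) grouped by role, in scramble (blue) and Lsg1 siRNA cells (orange), with open points where the adjusted p was 0.05 or above. Eif5b lies lowest at -1.55 and -1.60, and Eif3k highest at 0.25 and 0.30. Of the members called in scramble cells, the signs of Eif1, Eif3i, Eif3k, Eif5a, Eif2s2 and Eif4g2 turned with an offset for GC content and coding length. Of those not called, the signs of Eif4g3, Pabpc1 and Eef1a1 turned as well.

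Among the factors that select the start codon and join the subunits, Eif5b stood far from the rest. Eif5b encodes eIF5B, the GTPase that joins the large subunit at the start codon. Its mRNA was at 337.1, 310.1 and 301.7 CPM in whole-cell scramble and 101.1, 103.3 and 119.9 CPM in ER-bound scramble libraries, and at 330.8, 324.0 and 315.1 against 109.5, 95.8 and 114.2 CPM in the Lsg1 groups. Every ER-bound library lay below every whole-cell library, and the ER-bound mean was 34.2% and 32.9% of the whole-cell mean. The log2 fold was -1.55 ± 0.06 (SE, n = 3 per group; edgeR adjusted p = 9.52e-13) with scramble and -1.60 ± 0.06 (edgeR adjusted p = 4.97e-13) with Lsg1 siRNA.

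The other 3 genes of this group went the opposite way in scramble cells. Eif1, whose product guards start codon selection, was at 538.7, 515.3 and 488.4 CPM in whole-cell and 586.7, 595.0 and 586.0 CPM in ER-bound libraries, with a log2 fold of 0.20 ± 0.03 (edgeR adjusted p = 4.25e-05). In Lsg1 siRNA cells it was at 508.4, 526.6 and 541.4 against 572.4, 557.4 and 566.6 CPM, a log2 fold of 0.11 ± 0.03, and the groups did not overlap in either siRNA. With an offset for GC content and coding length Eif1 was instead called lower, at -0.11 and -0.22 (edgeR adjusted p = 0.00584 and 4.46e-06). Eif5, the GTPase-activating protein of eIF2, was at 458.4, 455.2 and 451.6 CPM in whole-cell and 475.6, 482.6 and 489.6 CPM in ER-bound scramble libraries. Eif1ax, which encodes the eIF1A that works beside eIF1, was at 234.3, 238.5 and 238.5 against 257.5, 249.1 and 246.4 CPM. Both had a log2 fold of 0.08 ± 0.03 and passed the test in scramble cells, while with the Lsg1 siRNA neither did, at 0.04 and 0.05. The interaction of fraction and siRNA passed for neither, so a difference between the siRNAs was not shown.

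The genes of eIF2, the tRNA carrier, and of eIF2B, the factor that reloads it with GTP, were lower or did not pass. Eif2s1, the alpha subunit that stress kinases phosphorylate, was at 413.8, 425.5 and 425.4 CPM in whole-cell and 373.1, 367.9 and 372.4 CPM in ER-bound scramble libraries, and at 424.5, 417.3 and 416.3 against 356.1, 355.3 and 369.0 CPM in the Lsg1 groups. The groups did not overlap, and the log2 folds were -0.18 ± 0.03 and -0.22 ± 0.03. Eif2s2, the beta subunit, was also called lower, by 0.08 ± 0.03 and 0.09 ± 0.03 on the log2 scale, although its groups overlapped, and with an offset for GC content and transcript length it was instead called higher, at 0.16 with each siRNA (edgeR adjusted p = 0.00014 and 0.000113). Of the 5 eIF2B subunits, Eif2b3, Eif2b4 and Eif2b5 were lower with both siRNAs and Eif2b1 and Eif2b2 passed with neither. The share of eIF2B genes called was 60% with either siRNA, near the 58.9% and 60.3% of all genes. Eif2b3, the gamma subunit, had the lowest log2 folds of them, at -0.30 ± 0.03 and -0.35 ± 0.03, and Eif2b2 had an ER-bound mean of 64.3 ± 1.4 CPM beside a whole-cell mean of 64.3 ± 2.8 CPM (SD, n = 3).

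The mRNAs for the subunits of 1 complex did not move alike. eIF3, the largest initiation factor, holds the small subunit and bridges it to eIF4G, and 13 of its genes were measured. In scramble cells 7 were lower, Eif3k and Eif3i were higher, and Eif3f, Eif3g, Eif3j1 and Eif3l did not pass. In Lsg1 siRNA cells the same 7 were lower and Eif3k was higher. The share of eIF3 genes called was 69.2% with scramble and 61.5% with Lsg1 siRNA, beside 58.9% and 60.3% of all genes. Lower calls made up 53.8% with either siRNA, beside 29.1% and 29.8% of all genes.

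The core subunits with the longest coding sequences had the lowest folds. Eif3a, the scaffold subunit, was at 781.2, 757.7 and 778.0 CPM in whole-cell and 448.9, 474.9 and 489.0 CPM in ER-bound scramble libraries (log2 fold -0.71 ± 0.03). Eif3b, which holds the part of eIF3 that carries Eif3g and Eif3i, was at 687.5, 702.2 and 734.3 against 443.4, 448.9 and 482.3 CPM (-0.63 ± 0.04). Eif3c, the partner of Eif3a in the core, was at 747.2, 754.5 and 773.2 against 510.3, 521.7 and 535.3 CPM (-0.54 ± 0.03). For all 3 the ER-bound libraries lay far below the whole-cell ones, and in Lsg1 siRNA cells the log2 folds were -0.71, -0.66 and -0.54. Eif3e, Eif3d, Eif3m and Eif3h followed with log2 folds of -0.43, -0.25, -0.17 and -0.14 in scramble cells. With the Lsg1 siRNA, the value of Eif3e turned to 0.01 and did not pass with the offset for GC content and transcript length.

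The small subunit Eif3k was on the other side. It was at 322.5, 334.0 and 344.8 CPM in whole-cell and 402.2, 387.8 and 401.0 CPM in ER-bound scramble libraries, and at 316.8, 340.0 and 339.3 against 392.8, 413.2 and 419.7 CPM in the Lsg1 groups. The groups did not overlap, and the log2 folds were 0.25 ± 0.04 and 0.30 ± 0.04. Eif3i was at 221.9, 223.1 and 239.3 CPM in whole-cell and 251.5, 241.1 and 242.1 CPM in ER-bound scramble libraries (0.10 ± 0.03), and in Lsg1 siRNA cells the groups overlapped and it did not pass (0.05 ± 0.03). Eif3k and Eif3i turned to -0.08 and -0.05 in scramble cells with an offset for GC content and coding length. Among the subunits that did not pass was Eif3f, with 289.8 ± 4.4 CPM in whole-cell and 277.2 ± 5.9 CPM in ER-bound scramble libraries (SD, n = 3). Its edgeR adjusted p was 0.0545, and it was called lower with the replicate number as a block. Eif3g did not pass either, with 259.5 ± 4.4 and 258.2 ± 5.8 CPM.

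**Figure D2:**
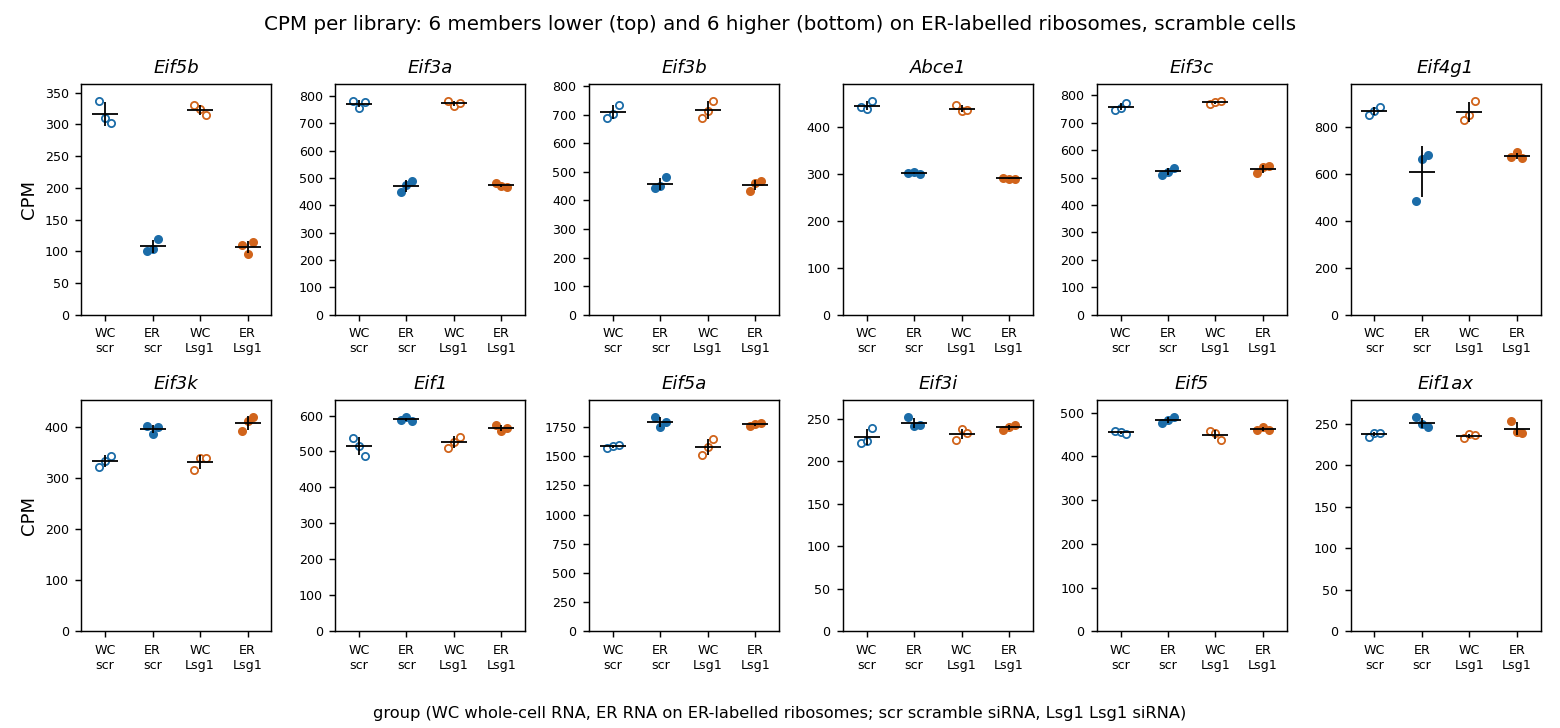
CPM in each of the 12 libraries (points; bar and whiskers, mean and SD of 3) for the 6 members with the lowest called log2 folds in scramble cells (top) and the 6 with the highest (bottom), with whole-cell libraries as open and ER-bound libraries as filled points. In the top row every ER-bound point lies below every whole-cell point of its siRNA, and Eif4g1 has 1 low ER-bound scramble library, at 484.1 CPM.

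Coding length varied with these folds. Across the 13 eIF3 genes the log2 fold and the log2 of the coding length had Pearson's r of -0.91 and Spearman's rho of -0.91 in scramble cells. In Lsg1 siRNA cells these were -0.91 and -0.89. Coding length was taken as log2 in all these correlations. Across all 42 members r was -0.60 and rho -0.60 in scramble cells, and across the 14691 genes tested with an annotated coding sequence r was -0.41 and rho -0.45. With the log2 of transcript length r in scramble cells was -0.51 for eIF3, -0.51 for all members and -0.19 for 17652 genes tested. With GC content these were 0.14, 0.20 and 0.24. These are descriptions across genes, which share the same libraries and are not independent replicates, and the length is that of the longest annotated coding sequence.

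Among genes with at most 1000 coding bases, all 4629 genes had a median log2 fold of 0.20 and the 13 members 0.02 in scramble cells, and 5 members were higher and 4 lower. Between 1000 and 2000 bases the medians were 0.04 for 5674 genes and -0.14 for 20 members, of which 1 was higher and 12 were lower. Between 2000 and 3000 bases they were -0.17 for 2335 genes and -0.18 for 5 members, all 5 of them lower. Above 3000 bases they were -0.45 for 2053 genes and -0.61 for 4 members, 3 of them lower. The members thus had lower medians than all genes of the same class, with nearly the same median between 2000 and 3000 bases. The shares of all genes called higher or lower within each class were not computed. The counts of called members by class are therefore given without a background and are not read as a result about the members.

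A fit with an offset for GC content and coding length, chosen after seeing the data, gave 4 members higher and 32 lower in scramble cells. In Lsg1 siRNA cells it gave 3 higher and 32 lower. Of all genes it called 4326 higher and 5987 lower with scramble, and 4374 and 6345 with Lsg1 siRNA. With scramble, 41.9% of all calls were thus higher, in place of 50.7% without the offset. The offset left none of the 13 eIF3 genes higher and 11 lower with either siRNA. Members called lower in scramble cells under every alternative fit tried were 14: Abce1, Eef1d, Eef2, Eif2b3, Eif2s1, Eif3a, Eif3b, Eif3c, Eif3d, Eif4a1, Eif4b, Eif4e, Eif5b and Etf1. None of the 6 higher members was called higher in every fit. In Lsg1 siRNA cells 14 members were called lower in every fit, the same ones but with Eif3h in place of Eif4b.

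**Figure D3:**
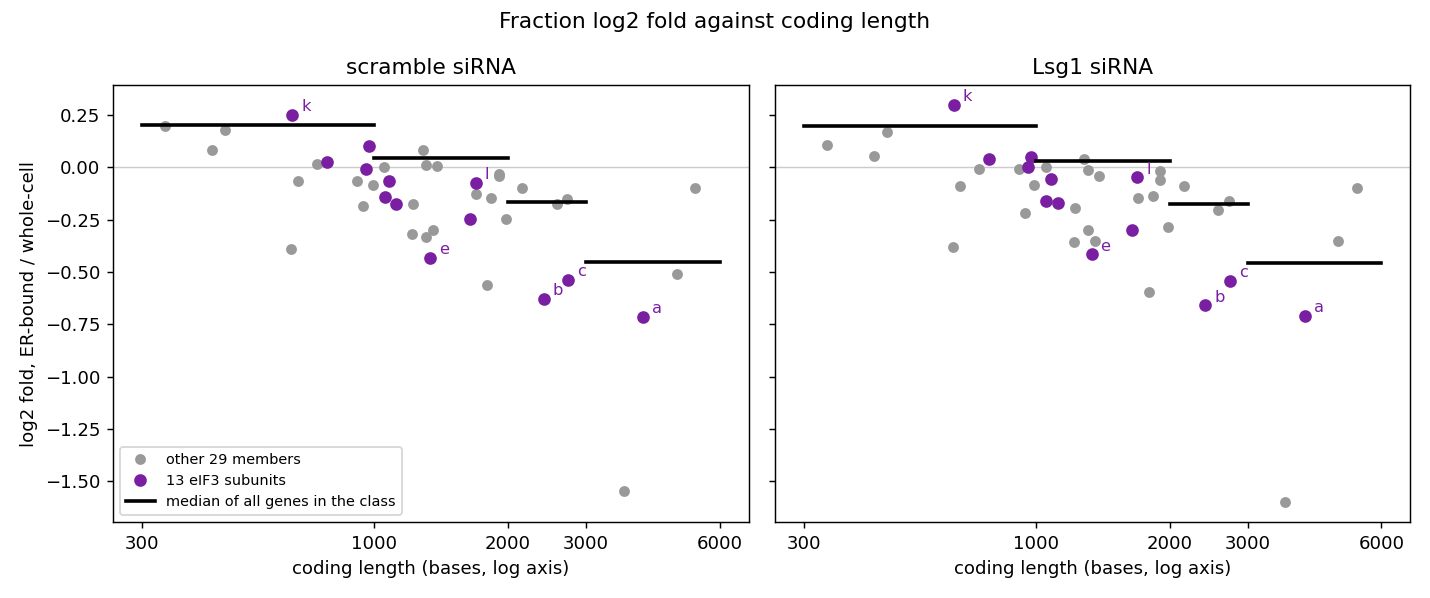
Log2 fold of ER-bound against whole-cell RNA (vertical axis) against the length of the longest annotated coding sequence (bases, log axis) in scramble (left) and Lsg1 siRNA cells (right), for 13 eIF3 subunits (purple, some marked by subunit letter) and 29 other members (grey), with the median of all genes in 4 length classes as black bars. The class medians fall from 0.20 below 1000 bases to -0.45 above 3000 bases in scramble cells, and Eif3a, Eif3b and Eif3c lie at -0.71, -0.63 and -0.54.

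The eIF4 group, which binds the cap, unwinds the leader and links cap and poly(A) tail, held 6 lower and no higher members of 9 in scramble cells, and 7 lower in Lsg1 siRNA cells. The share called was thus 66.7% and 77.8%, all lower, beside 58.9% and 60.3% of all genes called (29.1% and 29.8% lower). Eif4a1, the main eIF4A helicase, was at 2420, 2486 and 2583 CPM in whole-cell and 1977, 2002 and 2023 CPM in ER-bound scramble libraries, a log2 fold of -0.32 ± 0.02. In the Lsg1 groups it was at 2482, 2459 and 2478 against 1906, 1945 and 1940 CPM (-0.36 ± 0.02), so the fractions were fully separate with both siRNAs. Its paralog Eif4a2 was at 609.8, 609.3 and 572.8 CPM against 533.6, 544.1 and 509.7 CPM in scramble cells, and at 636.1, 609.4 and 571.1 against 556.7, 532.8 and 496.7 CPM in Lsg1 siRNA cells. Its log2 folds were -0.17 ± 0.04 and -0.20 ± 0.04. Per kilobase of the longest transcript, Eif4a1 stood at 788 and Eif4a2 at 221 CPM in whole-cell scramble RNA. Eif4e, the cap-binding protein itself, was lower by 0.39 ± 0.03 and 0.38 ± 0.03 on the log2 scale, and Eif4b, which stimulates eIF4A, by 0.15 and 0.14.

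The 3 eIF4G scaffolds differed in level and in the evenness of their replicates. Eif4g1 was at 851.7, 870.6 and 886.1 CPM in whole-cell scramble and 484.1, 662.3 and 682.8 CPM in ER-bound scramble libraries, and at 829.1, 850.7 and 912.7 against 671.8, 692.7 and 668.2 CPM in the Lsg1 groups. The first ER-bound scramble library was thus well below the other 5 ER-bound libraries, and the log2 fold of -0.51 ± 0.08 in scramble cells became -0.38 without it, beside -0.35 ± 0.08 in Lsg1 siRNA cells. With the offset for GC content and coding length the latter turned to 0.07 and did not pass (edgeR adjusted p = 0.276). Eif4g2, a scaffold that does not bind eIF4E, was at 1616, 1610 and 1655 against 1433, 1480 and 1486 CPM in scramble cells, and at 1569, 1580 and 1627 against 1413, 1437 and 1424 CPM in Lsg1 siRNA cells. Its log2 folds of -0.15 ± 0.02 and -0.16 ± 0.02 passed the test, and turned to 0.17 and 0.15 with the offset for GC content and coding length.

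Eif4g3, the scarce paralog at 6.72 CPM per kilobase beside 154 for Eif4g1 and 204 for Eif4g2 in whole-cell scramble RNA, passed the test with neither siRNA. It was at 53.8, 56.1 and 54.1 CPM in whole-cell and 45.0, 52.8 and 55.6 CPM in ER-bound scramble libraries, and at 56.7, 57.3 and 55.6 against 53.4, 53.2 and 52.0 CPM in the Lsg1 groups, where it was called lower (-0.11, edgeR adjusted p = 0.00849) once ER-bound scramble replicate 1 was left out of the fit. With an offset for GC content and transcript length it was instead called higher, at 0.27 with scramble and 0.24 with Lsg1 siRNA (edgeR adjusted p = 4.49e-06 and 1.94e-05), and with the offset for GC content and coding length at 0.46 and 0.44 (edgeR adjusted p = 5.07e-10 and 8.63e-10). Pabpc1, which coats the poly(A) tail and binds eIF4G, was at 3074, 3099 and 3124 against 2931, 3072 and 3092 CPM in scramble cells, where the groups overlapped and the log2 fold was -0.03 ± 0.02 (0.06 and called higher with the offset for GC content and coding length, edgeR adjusted p = 0.0498). In Lsg1 siRNA cells it was at 3002, 3030 and 3104 against 2822, 2948 and 2993 CPM and was called lower at -0.06 ± 0.02, which turned to 0.03 with library totals. Eif4h, a cofactor of eIF4A, had 376.4 ± 3.0 CPM in whole-cell and 381.1 ± 10.2 CPM in ER-bound scramble libraries (SD, n = 3) and did not pass.

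The elongation group held the 3 most abundant members per length of transcript, and 1 of its 6 genes was higher and 3 were lower with either siRNA. The share called was 66.7% with either siRNA, beside 58.9% of all genes with scramble and 60.3% with Lsg1 siRNA. Eef1a1, which brings aminoacyl-tRNA to the ribosome, stood at 6689 CPM per kilobase in whole-cell scramble RNA, ahead of Eef2 at 1170, Eif5a at 1103, Pabpc1 at 1063 and Eef1g at 1005. Eef1a1 was at 11750, 11940 and 12320 CPM in whole-cell and 12290, 12070 and 11790 CPM in ER-bound scramble libraries, and at 12420, 12060 and 11850 against 12040, 11930 and 11390 CPM in the Lsg1 groups. The fractions overlapped with both siRNAs, and the log2 folds of 0.01 ± 0.02 and -0.04 ± 0.02 did not pass the test. In scramble cells Eef1a1 was called higher with library totals and lower, at -0.17, with the offset for GC content and transcript length (edgeR adjusted p = 6.53e-07). Eef2, the translocase, was at 3614, 3570 and 3656 against 3092, 3244 and 3250 CPM in scramble cells and at 3683, 3643 and 3651 against 3204, 3225 and 3097 CPM in Lsg1 siRNA cells. It was lower with both, by 0.18 ± 0.02 and 0.20 ± 0.02 on the log2 scale, with no overlap.

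The exchange factor of eEF1A is made of Eef1b2, Eef1d and Eef1g, and these 3 mRNAs differed among themselves. Eef1d was lower by 0.24 ± 0.03 and 0.29 ± 0.03 on the log2 scale. Eef1b2 was lower by 0.07 ± 0.02 and 0.09 ± 0.02, and in scramble cells its fold was 0.01 with library totals. Eef1g did not pass, with 1873 ± 61 CPM in whole-cell and 1890 ± 28 CPM in ER-bound scramble libraries (SD, n = 3). Eif5a, the hypusine-bearing factor that helps ribosomes through difficult peptide bonds, was the higher member of this group. It was at 1569, 1590 and 1597 CPM in whole-cell and 1834, 1751 and 1790 CPM in ER-bound scramble libraries, without overlap, and its log2 folds were 0.18 ± 0.03 and 0.17 ± 0.03. With the offset for GC content and coding length they turned to -0.24 and -0.27.

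The 3 genes of termination and recycling included 2 that were lower with both siRNAs (66.7% called, beside 58.9% of all genes with scramble and 60.3% with Lsg1 siRNA). Etf1, the release factor that reads stop codons, was at 676.8, 690.8 and 685.1 CPM in whole-cell and 547.7, 552.3 and 531.5 CPM in ER-bound scramble libraries, and at 671.9, 686.1 and 688.5 against 559.0, 555.5 and 546.8 CPM in the Lsg1 groups. Abce1, the ATPase that splits ribosomes after termination, was at 442.8, 438.5 and 456.8 against 302.2, 305.1 and 299.8 CPM in scramble cells, and its ER-bound mean was 67.8% of the whole-cell mean. In both genes the replicates were tight and the fractions fully separate, with log2 folds in scramble cells of -0.33 ± 0.02 for Etf1 (edgeR adjusted p = 1.31e-09) and -0.56 ± 0.03 for Abce1 (edgeR adjusted p = 3.04e-12). Gspt1, the GTPase partner of Etf1, did not pass, at 384.8 ± 4.0 CPM in whole-cell and 374.1 ± 10.4 CPM in ER-bound scramble libraries (SD, n = 3).

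Other mRNAs of the translation apparatus, given as counts beside those of the members, did not share one pattern. Of 85 cytosolic ribosomal protein mRNAs, 67 were higher and 7 lower in ER-bound scramble RNA (median log2 fold 0.20), and of 38 aminoacyl-tRNA synthetase mRNAs 1 was higher and 33 lower (median -0.31). Several ribosomal protein genes, and Eef1a1 among the members, have near-identical processed copies, so their counts are less certain. The 11 known TOP mRNAs among the members did not follow the ribosomal proteins. In scramble cells none was higher and 7 were lower (63.6%, median -0.14). In Lsg1 siRNA cells 8 were lower, where Pabpc1 was added. Outside this list were 31 members, of which 6 were higher and 17 lower in scramble cells (54.8% lower, median -0.10). Over all genes 29.8% were higher and 29.1% lower. Coding length was not matched in these contrasts, and its part in them was not tested. With library totals in scramble cells 2 of the 11 were higher and 5 lower. Of the 8 members with a pyrimidine run beginning within 10 bases of the annotated start, 4 were lower and none was higher in scramble cells. Of the 25 with an entry and no such run 14 were lower and 5 higher.

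A further 4 lists held translation genes outside the 42. Of 18 other initiation factors, 4 were higher and 7 lower in scramble cells. Eif2s3x, the gamma subunit of eIF2, was lower by 0.79 ± 0.04 on the log2 scale, more than Eif2s1 or Eif2s2, and Dhx29, a helicase of scanning ribosomes, by 0.51, while Mif4gd and Eif1b were higher by 0.53 and 0.29, the latter turning to -0.08 with the offset for GC content and coding length. Among 20 tested regulators of initiation 3 were higher and 9 lower, led by Gcn1, the activator of the eIF2 kinase Gcn2, at -1.27 ± 0.16 (-1.01 without ER-bound scramble replicate 1, where it was at 51.6 CPM with the other 2 at 101.3 and 108.9), and Cyfip1, a partner of Fmr1, with Mknk1 (0.42) and Ppp1r15a (0.37) on the higher side.

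Of 17 other elongation genes 3 were higher and 6 lower, with Eif5a2 (-0.32), the paralog of Eif5a, and Dph7 (-0.27) lowest of the latter and Eef1akmt1 (0.19) and Dohh (0.14) highest of the former. Eef1akmt1 and Dohh turned below 0, and Eif5a2 above 0, with the offset for GC content and transcript length. Of 16 other termination, rescue and poly(A)-binding genes 4 were higher and 8 lower, with the ribosome rescue genes Ascc3 (-1.13) and Nemf (-0.94) lowest and Trmt112 (0.38, turning to -0.04 with the offset for GC content and coding length) and Hemk1 (0.37) highest. The shares called in these 4 lists were 61.1%, 60%, 52.9% and 75%, beside 58.9% of all genes.

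The siRNA comparison was checked on its target first. Lsg1 was at 136.0, 144.5 and 148.6 CPM in whole-cell scramble and 83.5, 96.7 and 113.7 CPM in whole-cell Lsg1 libraries, and at 142.5, 149.3 and 150.9 against 35.4, 42.5 and 52.5 CPM in ER-bound libraries. Every Lsg1 siRNA library lay below every scramble library of its fraction. The log2 fold was -0.55 ± 0.10 in whole-cell RNA, which did not pass (edgeR adjusted p = 0.245), and -1.77 ± 0.11 in ER-bound RNA (edgeR adjusted p = 6.28e-08).

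The translation factor mRNAs showed no called change with the Lsg1 siRNA. In whole-cell RNA 0 of 42 passed with edgeR, DESeq2 or limma-voom; with edgeR this stood beside 0% of all genes, and none had an unadjusted p under 0.05, beside 4.13% of all genes. Their log2 folds lay between -0.03 and 0.05, and no member had siRNA groups that did not overlap, beside 10.4% of all genes. The 3 members with the smallest p were Eif4g2, Eif3j1 and Eif3c. Eif3j1, a loosely bound eIF3 subunit, was at 75.7, 74.4 and 69.3 CPM in scramble and 75.6, 75.2 and 75.3 CPM in Lsg1 whole-cell libraries, and Eif3c at 747.2, 754.5 and 773.2 against 769.6, 773.7 and 779.7 CPM, so the groups overlapped. The farthest bound of a 95% interval of the log2 fold among the 42 was 0.20 from 0, for Eif4g1.

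In ER-bound RNA 0 of 42 members passed with edgeR, DESeq2 or limma-voom, beside 4.01% of all genes, and 4 had an unadjusted p under 0.05 (Eif5, Eif4a1, Pabpc1 and Abce1), beside 17.2% of all genes (6.63% with a lower mean). All 4 had lower means with the Lsg1 siRNA, with log2 folds between -0.05 and -0.06. Eif5 was at 475.6, 482.6 and 489.6 CPM in scramble and 461.6, 468.0 and 460.4 CPM in Lsg1 libraries, and Eif4a1 at 1977, 2002 and 2023 against 1906, 1945 and 1940 CPM, without overlap. For Pabpc1 the groups overlapped, at 2931, 3072 and 3092 against 2822, 2948 and 2993 CPM. In all, 4 members (Eif1, Eif5, Eif4a1 and Abce1) lay fully below scramble and 1 (Eif2b1) fully above, beside 8.95% and 12.5% of all genes (21.5% together). The farthest bound of a 95% interval was 0.34 for Eif4g1, whose scramble replicate 1 was low, and 0.17 among the other 41 members.

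The interaction of fraction and siRNA passed for 0 of 42 members with edgeR, DESeq2 or limma-voom, beside 0.0226% of all genes, and none had an unadjusted p under 0.05, beside 6.89% of all genes. The 3 members with the smallest p were Eif1, at -0.09 ± 0.05, Eif4g1, at 0.16 ± 0.12, and Eef1a1, at -0.05 ± 0.03 on the log2 scale. Without ER-bound scramble replicate 1 the value of Eif4g1 was 0.02. Of the 4 further lists, 1 gene, Paip2b, which binds Pabpc1, was called with the Lsg1 siRNA, higher in ER-bound RNA at 98.2, 97.8 and 93.5 against 109.7, 108.6 and 103.6 CPM (log2 fold 0.15 ± 0.04, edgeR adjusted p = 0.0269), and over the alternative fits the adjusted p lay between 0.00205 and 0.144, with the call lost in 9 of them.

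**Figure D4:**
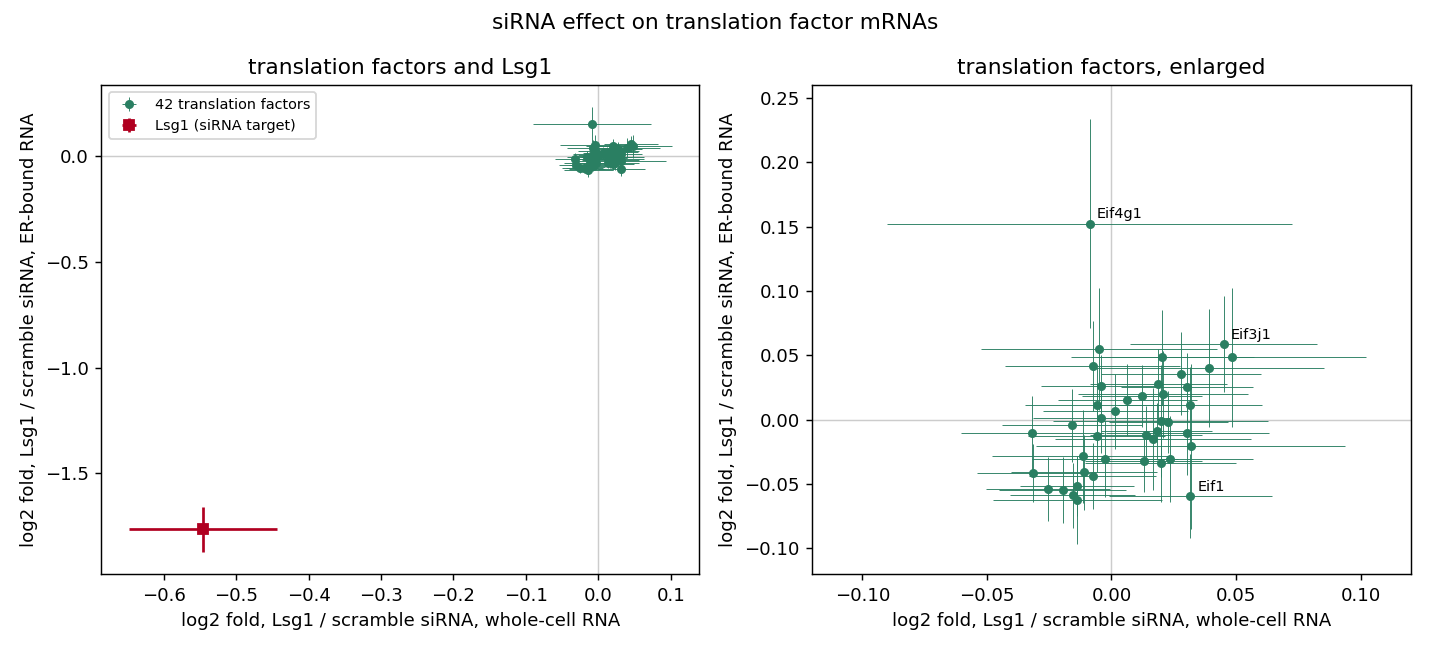
Log2 fold of Lsg1 against scramble siRNA in whole-cell RNA (horizontal axis) and ER-bound RNA (vertical axis), points with SE from edgeR (3 libraries per group), for the 42 members and the siRNA target Lsg1 (left) and for the members enlarged (right). Lsg1 lies at -0.55 and -1.77, and the members lie between -0.03 and 0.05 in whole-cell and -0.06 and 0.15 in ER-bound RNA.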

How the data were processed

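Ribosome-bound and whole-cell RNA of the 12 libraries was poly-A selected and sequenced as paired reads, per the labels. The authors deposited raw counts per gene; the submitters' processing notes name GRCm39, STAR 2.7.9a, HTSeq 0.11.2 and DESeq2, while annotation release and strand setting were not stated in the labels or headers. The 5 summary lines (2.65% to 5.26% of reads in no feature, 6.09% to 8.23% not unique) stayed out of library sizes and tests. Symbols, transcript lengths and coding lengths came from GENCODE vM21 (GRCm38), matched by gene ID without version, which named 94.1% of IDs with 99.5% of reads.

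From the deposited counts, CPM with TMM scaling, log2 folds and p-values were computed with edgeR 4.0.16 in R 4.3.3 (filterByExpr, quasi-likelihood F-test, 1 mean per group, all 12 libraries, a common biological coefficient of variation of 4.42%, 8 residual df, Benjamini-Hochberg over all 17702 genes, threshold 0.05). The SE is the log2 fold over the root of F. Replicates are labelled biological, with nothing on how cultures were separated, so p-values measure the spread between these samples. The tests were checked on simulated counts. Members, roles, lists and the rule for named genes (the 6 largest called folds in each direction in scramble cells, the 3 smallest p in each siRNA comparison and the interaction, 10 best known members, and up to 2 genes per direction of each further list) were chosen with earlier results of these data known. The lists of ribosomal proteins and synthetases follow gene symbols. No list was tested as a set. CPM are relative to each library.

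Same-numbered fractions share a lysate per the series design; deviations of same-numbered ER-bound and whole-cell libraries correlated at 0.178, 0.006 and 0.243 with scramble and 0.214, 0.012 and 0.164 with Lsg1 siRNA. Tried as alternatives were scaling by library totals or DESeq2 size factors, no filter, 2 CPM in 3 libraries, DESeq2 1.42.0, limma-voom (limma 3.58.1), a replicate block, only the groups compared, removal of ribosomal protein and mitochondrial genes, offsets for GC content with transcript length or with coding length (splines, 5 degrees of freedom), and libraries left out singly or, for the 2 that stand apart, together. The replicate block joined the same-numbered libraries of all groups, and did not pair the fractions of each lysate. Figures were drawn with matplotlib.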

Additional observations from a re-analysis of the deposited data

Results flagged for a closer look

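The Lsg1 siRNA lowered its target mRNA further among ER-bound than among whole-cell RNA, by -1.22 on the log2 scale in edgeR's interaction test (adjusted p = 0.00135), with all 3 Lsg1 siRNA libraries below all 3 scramble libraries in both fractions. None of the 42 translation factors was singled out by this test.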

How the results depend on the processing

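Leaving out 1 library gave 23 to 26 lower and 3 to 6 higher members in scramble cells (3 without whole-cell scramble replicate 1 or ER-bound scramble replicate 2 or 3), and 24 to 28 lower and 2 to 3 higher in Lsg1 siRNA cells. With 3 higher members in scramble cells the count also differed in the fit of only the groups compared and without the 2 libraries that stand apart. Library totals gave 10 higher members with either siRNA, the GC and transcript length offset 6 in Lsg1 siRNA cells, and no filter on low counts 1 member (Eif4g1) called higher with the Lsg1 siRNA in ER-bound RNA. With the replicate block 6 members were higher and 26 lower in scramble cells (Eif3f and Eif3l added) and 3 and 25 in Lsg1 siRNA cells; it changed no other call of a member.

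Signs changed as follows, with causes not tested. Eef1a1 in scramble cells was at -0.0093 with DESeq2 size factors and with DESeq2, -0.0091 without ribosomal protein and mitochondrial genes, -0.0084 with only the groups compared, and -0.031 to 0.016 with 1 library left out. Library totals gave 0.012 for Eef1b2 and 0.046 for Pabpc1 in scramble cells, and 0.0021 for Eif2s2, 0.028 for Pabpc1 and 0.049 for Eef1a1 in Lsg1 siRNA cells. The GC and transcript length offset gave, in scramble cells, -0.048 for Eif1, 0.16 for Eif2s2, -0.039 for Eif3i, 0.28 for Eif4g2, -0.11 for Eif5a, 0.27 for Eif4g3, -0.17 for Eef1a1, -0.067 for Eef1akmt1, -0.17 for Dohh and 0.036 for Eif5a2, and in Lsg1 siRNA cells -0.14 for Eif1, 0.16 for Eif2s2, 0.015 for Eif3e, 0.25 for Eif4g2, -0.13 for Eif5a, 0.24 for Eif4g3 and -0.030 for Eef1akmt1. The GC and coding length offset, added after seeing the data, gave, in scramble cells, -0.11 for Eif1, 0.014 for Eif2s2, -0.050 for Eif3i, -0.080 for Eif3k, 0.17 for Eif4g2, -0.24 for Eif5a, 0.46 for Eif4g3, 0.064 for Pabpc1, -0.051 for Eef1a1, -0.078 for Eif1b, -0.11 for Eef1akmt1, -0.26 for Dohh and -0.043 for Trmt112, and in Lsg1 siRNA cells -0.22 for Eif1, 0.012 for Eif2s2, -0.053 for Eif3k, 0.072 for Eif4g1, 0.15 for Eif4g2, 0.032 for Pabpc1, -0.27 for Eif5a, 0.44 for Eif4g3, -0.081 for Eif1b, -0.11 for Eef1akmt1 and -0.012 for Trmt112. Counting error and the spread between replicates were not separated, and genes with few reads have the larger errors.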
